A study of Homo sapiens with 4 samples.

Results

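Cadherins and protocadherins are calcium-dependent adhesion proteins of the cell surface, and 77 genes of these families were on the array, of 12222 genes with a platform symbol, through 81 of its 29640 non-control probes. Members were the probes whose platform symbol is CDH or PCDH with digits, or a clustered protocadherin symbol beginning with PCDHA, PCDHB or PCDHG. They comprised 21 probes of 18 CDH genes, 50 probes of 49 clustered protocadherin genes and 10 probes of non-clustered protocadherin genes. CDH2, CDH6, CDH11 and PCDHGC4 had 2 probes each. By the RefSeq annotation, 58 of the 80 probes whose values are given lie on chromosome 5, where the clustered genes stand, and 8 lie on chromosome 16. PCDH11Y is counted among the 81, and its values are not printed.

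RNA came from cells exposed to 1 µM 5-aza-2'-deoxycytidine for 96 h after 24 h of growth, and from the same line without the drug. The lines, DLD-1 and HT-29, come from human colorectal carcinomas and were grown in RPMI1640. The drug is a nucleoside analogue that is built into DNA and traps DNA methyltransferases, so that methylation is lost as cells divide, and the study looked for genes silenced by methylation in these lines. Each line had 2 arrays, each carrying treated and untreated RNA in different dyes, array 1 with treated RNA in Cy5 and array 2 with the dyes exchanged. Nothing in the labels says whether the 2 arrays of a line held separate cultures, so they were averaged and counted as 1 replicate.

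The file columns name channels 1 and 2 and no dye, so they do not settle which way the dye-exchanged arrays run. All values below take channel 2 as treated RNA on all 4 arrays. This reading was chosen from these same ratios, because probes with the strongest ratios then share a sign. The order of channels in the labels would turn the sign of both dye-exchanged arrays, and results under that order are given where they bear on a statement. Past 2-fold with 1 sign on both arrays, the labels' order held more probes. In DLD-1 it held 78 higher and 3 lower, against 24 and 2 under the reading used. In HT-29 it held 69 higher and 1 lower, against 26 and 3, so agreement in sign does not settle the reading. Array 2 of DLD-1 ran against array 1, with r = -0.77 across the 50 members measured in both lines and -0.45 over all 18868 probes. The HT-29 arrays had r = -0.10 for members and 0.00 for all probes. Between lines, the arrays with treated RNA in Cy5 had r = 0.45 for members and 0.51 for all probes, and the dye-exchanged arrays -0.21 and -0.20. These correlations run across probes, which share arrays and print positions and are not replicates. Above background here means an intensity over 2 background SD above the local background. Per array, 61 to 68 of the 81 members had at least 1 channel above background, and position in the 48 printed blocks accounted for 23.2% to 49.7% of the variance of all log2 ratios. With so few arrays, precision is low throughout.

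Classical cadherins bind the same cadherin on a neighbouring cell and, inside the cell, hold catenins that link to actin. E-cadherin, the product of CDH1, is the adherens junction cadherin of intestinal epithelium, and its loss through promoter methylation or repressors is well known in carcinomas. Protocadherins lack the catenin-binding tail. The alpha, beta and gamma clusters each hold many tandem first exons with promoters of their own, best known for giving neurons separate surface identities, and promoter methylation takes part in choosing among them.

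No cadherin or protocadherin probe passed the test for a change with the drug. Over both lines, 50 members had at least 1 channel above background on every array, and limma, a linear model that shares the variance between probes, called 0 of them higher and 0 lower at an adjusted p under 0.05 (Benjamini-Hochberg over all tested probes), against 0.143% of all 18868 tested probes higher and 0.0318% lower. At an unadjusted p under 0.05 the fit held 1 member, CDH1, a share below the 4.82% of all probes. The mean log2 ratios of the 49 tested members whose values are shown ran between -0.30 and 0.44, with 20 above 0 and 29 below, and each had a standard error of 0.22. The member median was -0.08, against 0.01 for all probes. Limma took 1 variance for all probes. An exact sign-flip test of the 2 line means of a single probe has a smallest two-sided p of 0.5. Under the labels' channel order limma also called 0 members, against 0.668% of all probes higher and 0.0477% lower. The unadjusted p was then under 0.05 for 6 of the 50 members. The share of all probes at that cut under this order is not given here, so the count has no background. The member median was then 0.06. In bulk RNA, fewer cells with a transcript and less transcript per cell cannot be told apart.

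Within each line the count was of probes at least 2-fold changed with the same sign on both arrays, a description with no test. In DLD-1 0 of 56 members reached it, against 0.113% of all probes higher and 0.00944% lower. In HT-29 0 of 58 members did, against 0.115% higher and 0.0132% lower. Under the labels' channel order the count was again 0 in each line, against 0.368% of all probes higher and 0.0142% lower in DLD-1 and 0.305% higher and 0.00442% lower in HT-29. No member was above background in treated RNA on both arrays of a line while untreated RNA was not, a state that 0.105% of all probes showed in DLD-1 and 0.324% in HT-29. The reverse state was also found for no member, and for 0.308% of all probes (DLD-1) and 0.0473% (HT-29). Without regard to size, 4 DLD-1 members were higher on both arrays and 13 lower, against 14.6% and 17.3% of all probes. In HT-29, 14 members were higher on both arrays and 16 lower, against 27.9% and 28.5% of all probes. The other 39 DLD-1 members, 69.6%, had opposite signs on the 2 arrays, as did 68.1% of all DLD-1 probes, and the other 28 HT-29 members, 48.3%, against 43.6% of all HT-29 probes. These members would have 1 sign within the line if array 2 were turned, as in the labels' channel order.

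Across all 4 arrays only PCDH1 held 1 sign, among the 50 tested members and with channel 2 as treated RNA. PCDH1 is a non-clustered protocadherin of epithelia. Its log2 ratios were -0.16 and -0.10 in DLD-1 and -0.18 and -0.39 in HT-29, a mean of -0.21 with an adjusted p of 0.963 in limma. Over all probes, 3.31% were below 0 on all 4 arrays and 4.53% above. Which members hold 1 sign turns on that reading. The mean of PCDH1 was 0.04 under the labels' channel order, and members such as PCDHGA9, PCDHGA10, PCDHGB5 and PCDH7 then held 1 sign in its place, 4 of the 50 above 0 and 4 below, against 8.65% and 7.28% of all probes.

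**Figure D1:**
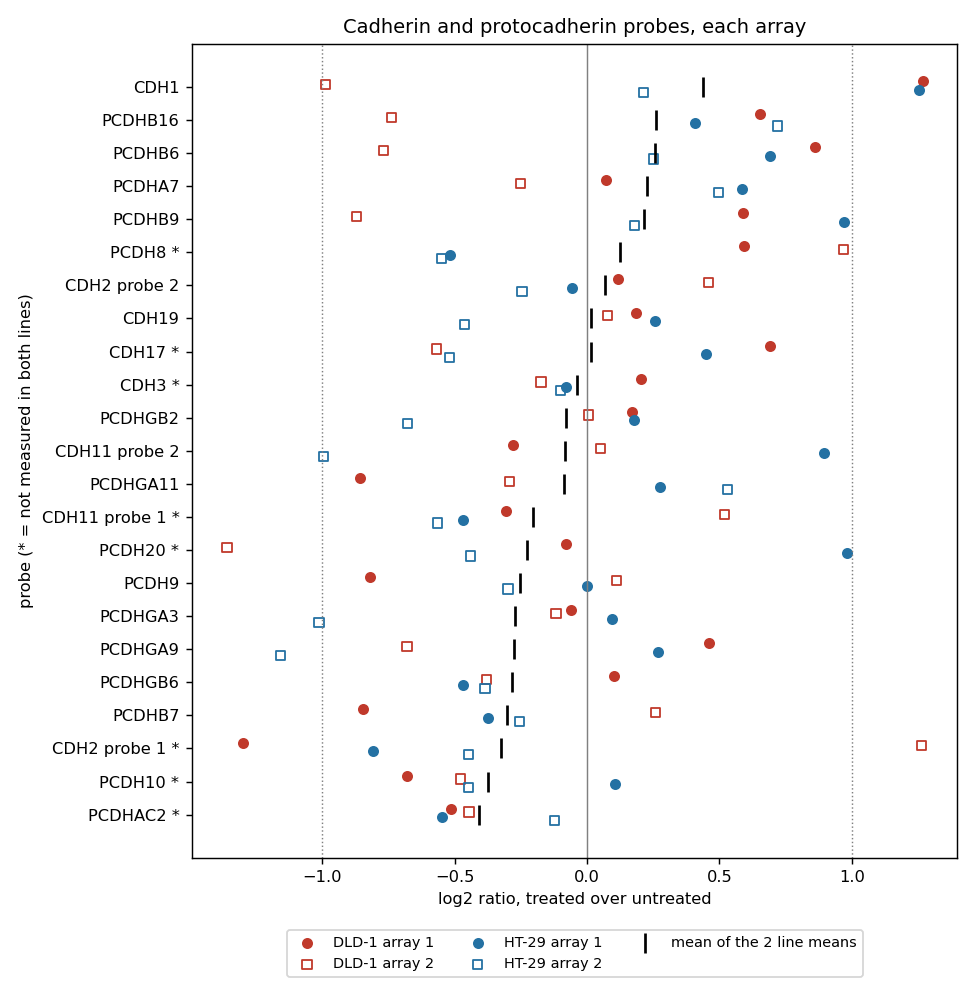
Log2 ratio of treated over untreated RNA for 23 named probes on each of the 4 arrays, with array 1 of a line as a filled circle, array 2 as an open square and the mean of the 2 line means as a black bar; dotted lines mark a 2-fold difference, and an asterisk marks a probe that was not above background in at least 1 channel on every array. CDH1 lay near 1.27 on both arrays with treated RNA in Cy5, and at -0.99 and 0.21 on the dye-exchanged arrays.

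Among the type I classical cadherins, CDH1 had the highest mean of the tested members shown, under either channel order. Among the same members tested over both lines, it also had the widest disagreement between DLD-1 arrays. Its log2 ratios were 1.27 and -0.99 on the DLD-1 arrays and 1.26 and 0.21 on the HT-29 arrays. The net intensities, with local background subtracted by the authors, on DLD-1 array 1 were 5437 for treated and 1763 for untreated RNA. On DLD-1 array 2 they were 1978 for treated and 4462 for untreated RNA, so channel 1 was the brighter there and the dimmer on array 1. In HT-29 they were 1244 treated and 336 untreated on array 1, and 4449 treated and 3129 untreated on array 2. All 8 channel measurements of CDH1 were above background, untreated RNA of both lines included.

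The CDH1 line means were 0.14 ± 1.59 in DLD-1 and 0.73 ± 0.74 in HT-29 (SD of the 2 arrays of a line). The mean over both lines was 0.44, with a 95% interval of 0.00 to 0.87, an unadjusted p of 0.0479 and an adjusted p of 0.963 in limma. Under the labels' channel order the mean was 0.82 and the adjusted p 0.0804. Without DLD-1 array 2 the mean was 1.00 and the adjusted p 0.00211, in a fit that called 4.52% of all probes, and without DLD-1 array 1 the mean was -0.13. Over all alternatives tried the adjusted p of CDH1 ran between 0.00211 and 1.00. With block medians set to 0 the mean was 0.27.

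CDH2, or N-cadherin, is a neural and mesenchymal cadherin that carcinoma cells can switch to. Its first probe had log2 ratios of -1.30 and 1.26 in DLD-1 and -0.81 and -0.45 in HT-29, and both channels of DLD-1 array 1 were not well above background. Its second probe had 0.12 and 0.46 in DLD-1 and -0.05 and -0.25 in HT-29, with all 8 channel measurements above background. The probes of CDH2 therefore had the same sign on both HT-29 arrays and on DLD-1 array 2, and opposite signs on DLD-1 array 1. CDH3, or P-cadherin, a cadherin of basal epithelial layers, had 0.20 and -0.17 in DLD-1 and -0.08 and -0.10 in HT-29, all small, and in HT-29 it was above background on 1 array. The member probe of CDH15, the muscle cadherin, was above background in no channel, while a CDH15 probe without a platform symbol, outside the members, was above it in all 8.

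Type II cadherins bind other type II partners and mark mesenchymal, vascular and neural cells. Of 13 probes, 7 were tested, limma called 0 of them, and their means ran between -0.08 and 0.17 with a median of 0.01. CDH8, a neural cadherin, had -1.01 and 0.56 in DLD-1 and 0.67 and -0.33 in HT-29, opposite ways in each line. CDH7, another neural member, had 0.13 and -0.08 in DLD-1 and 0.34 and 0.28 in HT-29, with a mean of 0.17, and of 0.07 under the labels' channel order, where CDH18 had 0.43. CDH11, the cadherin of mesenchyme and bone, is among the genes known to be methylated in carcinomas. Its second probe had -0.28 and 0.05 in DLD-1 and 0.89 and -0.995 in HT-29, so that its HT-29 arrays pointed opposite ways. Its first probe was above background in 2 of 8 channel measurements and had -0.30 and 0.52 in DLD-1 and -0.47 and -0.56 in HT-29. CDH19 had 0.18 and 0.08 in DLD-1 and 0.26 and -0.46 in HT-29. CDH5, the cadherin of endothelial junctions, was above background in no channel.

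CDH17, the liver-intestine cadherin, has a short tail without catenin binding. It was above background in 1 of 8 channel measurements, untreated DLD-1 RNA on array 2, and had log2 ratios of 0.69 and -0.57 in DLD-1 and 0.45 and -0.52 in HT-29. CDH16, the kidney cadherin, and CDH23, a tip link protein of hair cells, were tested and had means of -0.02 and -0.19.

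Among the 10 non-clustered protocadherin probes, 5 were tested and 0 called, with means between -0.25 and 0.05 and a median of -0.21. PCDH7 had a mean of 0.05, and of -0.48 under the labels' channel order, with -0.24 and 0.04 in DLD-1 and -0.62 and 1.03 in HT-29, where its arrays disagreed by more than any other tested member shown except CDH11. PCDH8, PCDH10 and PCDH20, known for promoter methylation in carcinomas, were each not above background in either channel on at least 1 array. PCDH8, the human counterpart of the rat activity-induced protein arcadlin, had 0.59 and 0.97 in DLD-1, against -0.52 and -0.55 in HT-29. Neither channel was above background on DLD-1 array 1, where the net intensity was 93.8 for treated RNA and nothing was left for untreated RNA after subtraction. On DLD-1 array 2 it was 1521 treated and 826 untreated. The lines lay on opposite sides of 0 on both arrays, but the probe could not enter the fit.

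PCDH10, a protocadherin of brain circuits, had -0.68 and -0.48 in DLD-1 and 0.10 and -0.45 in HT-29, and was above background in 3 of 8 channel measurements. PCDH20 had -0.08 and -1.36 in DLD-1 and 0.98 and -0.44 in HT-29, with 5 of 8 above background. Neither had 1 sign on all 4 arrays. PCDH9 had -0.82 and 0.11 in DLD-1 and -0.00 and -0.30 in HT-29, with a mean of -0.25 and an adjusted p of 0.963 in limma.

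**Figure D2:**
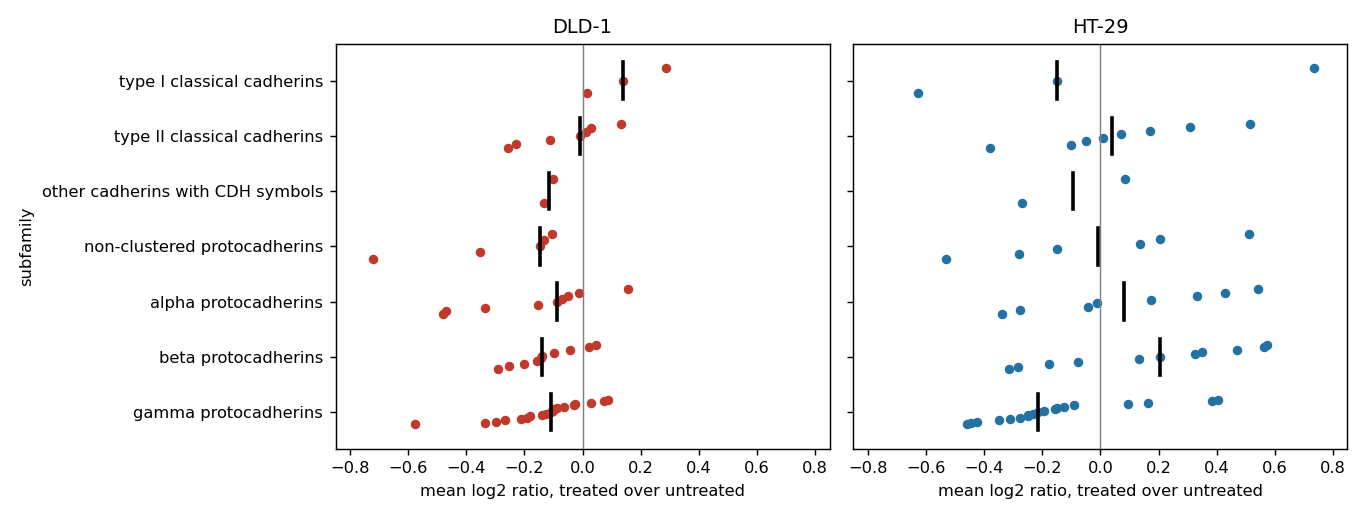
Mean log2 ratio of treated over untreated RNA over the 2 arrays of DLD-1 (left) and HT-29 (right) for each member probe that entered the line's comparison, by subfamily, with the subfamily median as a black bar; PCDH11Y is not drawn. All points lie between -0.72 and 0.73, and the gamma probes of HT-29 lie mostly below 0, with a median of -0.22.

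The clustered genes differ in their first exons and promoters, and DNA methylation, which the drug lowers, sits on CpG dinucleotides that can be read in promoter sequence. RefSeq promoter windows of build GRCh38.p14, from 250 bases before to 50 after each gene start, matched 62 of the 77 member genes. The median window held 7.5 CpG among members and 14 among all 27305 promoters. The 46 clustered promoters had a median of 7 CpG and a GC content of 39.67%, against 58.33% for all promoters. Most clustered promoters are known to carry a conserved element around the letters CGCT, which overlaps the binding site of CTCF. The letters CGCT, sought on both strands, stood in 45 of the 46 windows, 97.83%, and in 69.38% of all promoters. The stretch around them is shown for named members of each cluster and for PCDHA4, with CGCT in capitals, all on the + strand.

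PCDHA7, chr5:140834176-140834195: gccacatgatgtCGCTcttt
PCDHA4, chr5:140806983-140807002: gccacatgatgtCGCTcttt
PCDHB9, chr5:141187078-141187097: gccacaaggtggCGCTgcag
PCDHB7, chr5:141172570-141172589: aacgcaaggtggCGCTgctg
PCDHGA9, chr5:141402718-141402737: gactctgagcgcCGCTgttg
PCDHGB6, chr5:141407928-141407947: gcctctgggcgcCGCTgtcg

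PCDHA7 and PCDHA4 share all 20 bases. Longer forms of the element were picked after the promoters had been read, so their shares are descriptions. TGTCGCTNT stood in 9 of 13 alpha promoters and in 0.509% of all promoters. GTGGCGCT stood in 12 of 13 beta promoters and in 1.179% of all. GCGNCGCTG stood in 13 of 20 gamma promoters and in 3.574% of all. Each contains CGCT, was sought on both strands and was found on the gene's own strand, at a median of 51, 65.5 and 67 bases before the start in alpha, beta and gamma promoters. Whether CTCF or any factor bound there was not measured.

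Whole windows are shown for 3 members to set CpG-rich against CpG-poor promoters, with every CpG in capitals. PCDHGB6 had 16 CpG and PCDHB9 5, both on the + strand, and PCDH8 had 20, on the - strand.

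PCDHGB6, chr5:141407771-141408070: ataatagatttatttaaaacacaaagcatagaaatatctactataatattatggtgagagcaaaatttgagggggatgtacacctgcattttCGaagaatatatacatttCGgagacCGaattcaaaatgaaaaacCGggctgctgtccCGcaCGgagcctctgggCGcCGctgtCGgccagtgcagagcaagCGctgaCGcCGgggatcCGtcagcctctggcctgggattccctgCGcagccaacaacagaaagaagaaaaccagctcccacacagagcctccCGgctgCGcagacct
PCDHB9, chr5:141186911-141187210: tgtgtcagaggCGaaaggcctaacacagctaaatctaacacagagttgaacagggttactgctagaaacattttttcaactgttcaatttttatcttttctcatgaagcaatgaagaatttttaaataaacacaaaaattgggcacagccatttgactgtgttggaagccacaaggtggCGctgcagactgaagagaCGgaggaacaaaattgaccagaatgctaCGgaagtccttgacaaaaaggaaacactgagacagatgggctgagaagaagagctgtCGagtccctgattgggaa
PCDH8, chr13:52848591-52848890: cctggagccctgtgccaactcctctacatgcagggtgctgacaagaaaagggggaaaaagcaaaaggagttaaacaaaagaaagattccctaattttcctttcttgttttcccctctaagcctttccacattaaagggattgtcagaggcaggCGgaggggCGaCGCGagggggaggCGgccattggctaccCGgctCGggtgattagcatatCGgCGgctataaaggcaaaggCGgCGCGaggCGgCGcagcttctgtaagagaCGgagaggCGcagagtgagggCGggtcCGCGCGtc

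The CpG count of a window and the mean log2 ratio of its probe had a Spearman rho of -0.04 over 43 tested probes with a promoter, a description across probes. No window was matched for CDH1, CDH11, PCDH10 or PCDH20, so these genes are not part of it. The rho was -0.29 under the labels' channel order and 0.07 with block medians set to 0.

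Of the 13 alpha probes, 8 were tested, limma called 0, and their means ran between -0.24 and 0.23 with a median of -0.03. PCDHA7 had a mean of 0.23, with 0.07 and -0.25 in DLD-1 and 0.58 and 0.50 in HT-29. Its mean was 0.10 under the labels' channel order and 0.02 with block medians set to 0, when HT-29 array 2 stood at -0.16. PCDHA4, with the same element, had -0.09 and -0.58 in DLD-1 and 0.42 and 0.44 in HT-29. Both were positive on both HT-29 arrays, and both were printed in block column 3. All probes of that column had medians of 0.16 and 0.45 on the HT-29 arrays. With block medians set to 0, PCDHA4 stood at 0.26 and 0.05 in HT-29. A part of the shared element in these signs was not tested. PCDHAC2, one of the alpha genes with a C-type first exon, had -0.51 and -0.45 in DLD-1 and -0.55 and -0.12 in HT-29, below 0 on all 4 arrays, but in HT-29 it was not above background on every array and it was left out of the fit. PCDHA1, PCDHA6 and PCDHA8 were above background in no channel.

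Of the 14 beta probes, 9 were tested and 0 called, with means between -0.30 and 0.26 and a median of 0.13. Beta genes are single exons with no shared constant part. PCDHB16 had 0.65 and -0.74 in DLD-1 and 0.41 and 0.72 in HT-29. PCDHB6 had 0.86 and -0.77 in DLD-1 and 0.69 and 0.25 in HT-29. PCDHB9 had 0.59 and -0.87 in DLD-1 and 0.97 and 0.18 in HT-29. All 3 were positive on both HT-29 arrays and had opposite signs on the DLD-1 arrays. They were printed in block column 3, where all probes had medians of 0.25 and -0.31 on the DLD-1 arrays. On the HT-29 arrays the medians of that column were 0.16 and 0.45. The means of the 3 probes were 0.26, 0.26 and 0.22, with an adjusted p of 0.963 each in limma. With block medians set to 0 the means were 0.09, 0.13 and 0.05, and HT-29 array 2 stood at -0.06 for PCDHB6 and -0.48 for PCDHB9. The labels' channel order gave means of 0.27, 0.52 and 0.56 for PCDHB16, PCDHB6 and PCDHB9. PCDHB7 had a mean of -0.30, and of -0.31 under the labels' channel order, with a 95% interval of -0.74 to 0.13. Its values were -0.84 and 0.26 in DLD-1 and -0.37 and -0.26 in HT-29.

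Of the 23 gamma probes, 17 were tested and 0 called, with means between -0.28 and 0.03 and a median of -0.15. In HT-29, 15 of 19 had a mean below 0, against 11307 of all 22642 HT-29 probes, and the gamma median was -0.22. That median was made by array 2, where it was -0.39, while on array 1 it was 0.14. With array 2 turned, as in the labels' channel order, the HT-29 median was 0.21. PCDHGA9 had 0.46 and -0.68 in DLD-1 and 0.27 and -1.16 in HT-29. PCDHGA3 had -0.06 and -0.12 in DLD-1 and 0.09 and -1.01 in HT-29. PCDHGB6 had 0.10 and -0.38 in DLD-1 and -0.47 and -0.39 in HT-29, below 0 on 3 arrays. Their means were -0.28, -0.27 and -0.28, with an adjusted p of 0.963 each, and under the labels' channel order 0.64, 0.29 and 0.10.

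PCDHGA11 had -0.86 and -0.29 in DLD-1, against 0.28 and 0.53 in HT-29, with all 8 channel measurements above background. The lines lay on opposite sides of 0 on both arrays, a pattern that 5 of 50 members showed and 7.41% of all probes. PCDHGB2 had 0.17 and 0.00 in DLD-1 and 0.18 and -0.68 in HT-29. Gamma genes share their last exons, as do alpha genes, and clustered first exons resemble each other closely. The positions of the probes within the transcripts were not examined here, so signal from related transcripts at a probe cannot be told apart from that of the named gene.

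Print position was set beside the cluster medians. Of the 17 tested gamma probes 14 were printed in block column 4, where the median of all probes in HT-29 was 0.21, and 6 of the 9 tested beta probes stood in block column 3, where it was 0.33. The gamma median in HT-29 was -0.22. With block medians set to 0, the HT-29 median was 0.08 for alpha, 0.08 for beta and -0.25 for gamma probes. The gamma median on HT-29 array 2 was then -0.53 and on array 1 0.00. The part of print position in these medians was not tested.

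**Figure D3:**
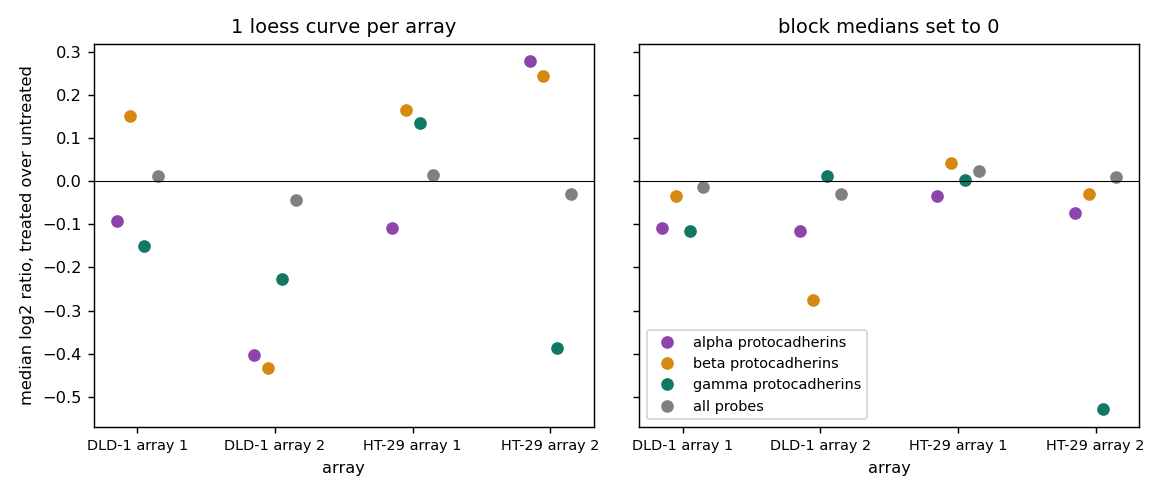
Median log2 ratio of treated over untreated RNA of the alpha, beta and gamma protocadherin probes and of all probes on each array, with 1 loess curve per array (left) and after block medians were set to 0 (right). The beta median on DLD-1 array 2 was -0.43 before and -0.28 after block centring, while the gamma median on HT-29 array 2 was -0.39 before and -0.53 after.

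**Figure D4:**
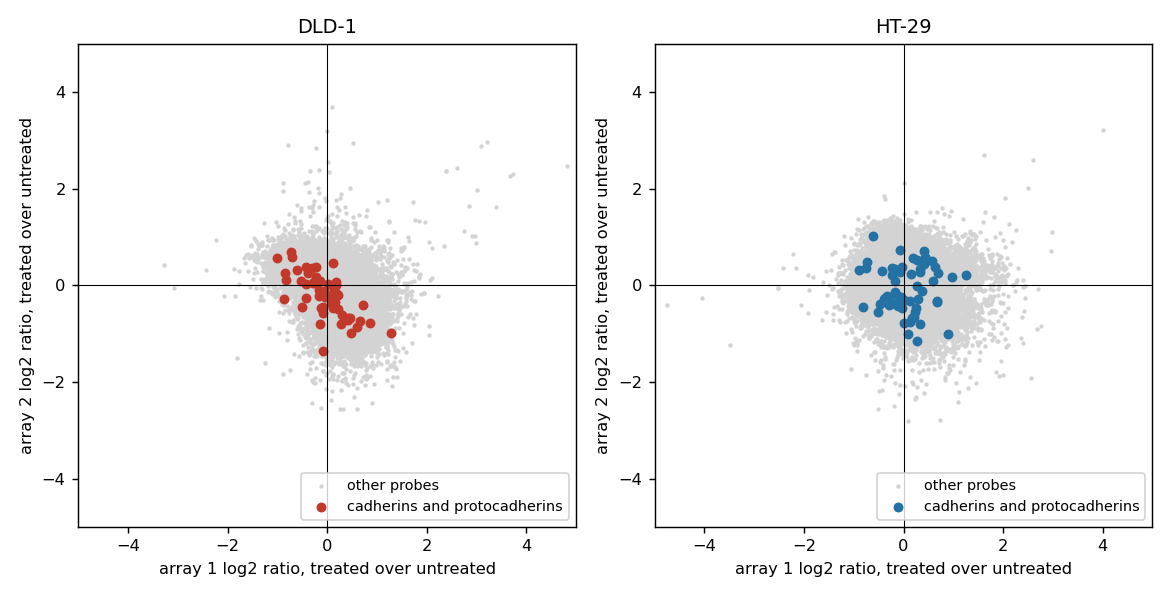
Log2 ratio of treated over untreated RNA on array 2 against array 1 of the same line, with members coloured and other probes grey. In DLD-1 the member points run from upper left to lower right, with r = -0.77 over the members tested in both lines, and in HT-29 they form a cloud with r = -0.10.

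The signal of a probe averaged over both channels does not depend on which channel is treated, and was compared between lines for the same probe after quantile normalization. Among the 50 tested members, 2 were over 2-fold higher in DLD-1 and 4 over 2-fold lower, or 4% and 8%, against 9.72% and 7.35% of all probes. PCDHB2 had log2 signals of 11.97 and 12.16 in DLD-1, against 10.84 and 9.47 in HT-29, a difference of 1.91. PCDHGB2 had 11.07 and 11.33 in DLD-1, against 9.81 and 9.54 in HT-29, a difference of 1.52. For both genes the arrays of the lines did not overlap.

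PCDHA10 had log2 signals of 9.32 and 9.84 in DLD-1, against 11.31 and 11.20 in HT-29, a difference of -1.67. PCDHA4 had 10.44 and 9.35 in DLD-1, against 11.10 and 12.00 in HT-29, a difference of -1.66. The second CDH2 probe had 11.27 and 9.29 in DLD-1, against 11.70 and 11.93 in HT-29, a difference of -1.54. PCDHA11 had 9.93 and 12.22 in DLD-1, against 12.26 and 12.47 in HT-29, a difference of -1.30. All 4 arrays separated by line for these probes, but the DLD-1 arrays of CDH2 and PCDHA11 differed from each other by more than the line means did. Each line has 1 replicate, so no test was made.

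**Figure D5:**
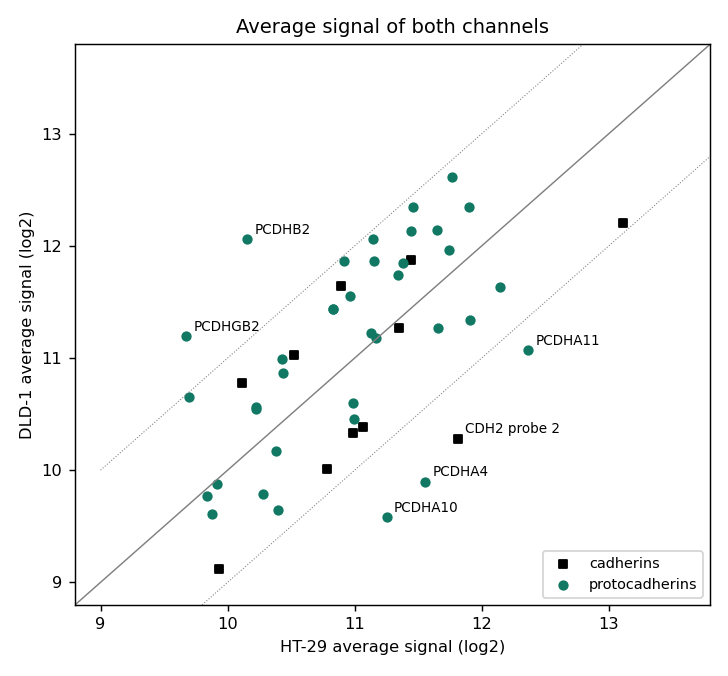
Average log2 signal of both channels in DLD-1 against HT-29 for the tested members other than PCDH11Y, cadherins as squares and protocadherins as circles, with the solid line at equality and dotted lines at a 2-fold difference. PCDHB2 and PCDHGB2 lie above the upper dotted line, and PCDHA10, PCDHA4, the second CDH2 probe and PCDHA11 below the lower one.

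Genes that work with cadherins also held no called probe. Limma called 0.175% of all tested probes, so a count of 0 in lists this short tells little about these genes. Of 14 probes of catenins and plakophilins, which tie cadherins to actin and keratin, 7 were tested and 0 called, with a median of 0.03. CTNNA2, a neural alpha-catenin, had 0.12 and 0.09 in DLD-1 and 0.22 and 0.13 in HT-29, above 0 on all 4 arrays, with a mean of 0.14 and an adjusted p of 0.963. JUP, or plakoglobin, had a mean of 0.03, and CTNNB1, or beta-catenin, was not measured in both lines. Desmosomal cadherins, the adhesion proteins of desmosomes, had 4 of 7 probes tested and 0 called, with a median of 0.00. Other cadherin superfamily genes, such as FAT1 and the CELSR genes, had 12 of 17 tested and 0 called, with a median of 0.01. Repressors of CDH1 transcription had 7 of 8 tested and 0 called, with a median of 0.12. Among them SNAI1, or Snail, had the highest mean, 0.31, with 0.62 and -1.09 in DLD-1 and 1.37 and 0.35 in HT-29. Its DLD-1 arrays had opposite signs, as had those of CDH1 and of 68.1% of all DLD-1 probes.

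Above-background signal did not separate the cell type of these lines. Untreated signal was above background on both arrays for 52 of 81 members in DLD-1, against 66.5% of all probes, and for 51 in HT-29, against 64.1%. Of 8 epithelial and intestinal marker probes it was above background for 7 in DLD-1 and 8 in HT-29. Of 6 fibroblast marker probes the count was 5 for DLD-1 and 4 for HT-29, of 2 endothelial marker probes 2 for DLD-1 and 1 for HT-29, and of 3 leukocyte marker probes 3 for DLD-1 and 1 for HT-29. A member above background is therefore not shown to be expressed, and 6 of the 81 members, against 5.75% of all probes, were above background in no channel of any array.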

How the data were processed

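Scanner files deposited by the authors give, per the file headers, spot intensity, local background and background SD of 2 channels on a linear scale, and the authors' log2 ratio of the channels, centred on each array. Amino allyl aRNA from TriZol RNA was coupled to Cy3 or Cy5, per the labels' protocols. Scanner and software are not given in the sources used.

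Log2 ratios were recomputed from intensities in R 4.3.3 with limma 3.58.1, using normexp (offset 50) and, per array, 1 loess curve (span 0.3, 4 iterations, control and bad spots without weight). Above background means over 2 background SD above local background. A probe entered where at least 1 channel was above it on every array used. After arrays of a line were averaged, limma's lmFit and eBayes set both line means against 0 (two-sided), and p-values were adjusted over 18868 probes by Benjamini-Hochberg. The fit was tested on simulated data. No column of per-sample values was left out of use.

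Members, lists and the channel reading were chosen with earlier results of these data known. Named probes were those called, those past 2-fold on both arrays of a line, the 5 highest and 5 lowest means, in each line the 3 highest and 3 lowest means of 1 sign, and listed adhesion and methylation targets. All other probes given values, such as PCDH1, PCDHA4 and those that differed between lines in signal, were picked after their values were seen. Symbols came from the platform table, and all 81 equal current RefSeq symbols; 1 probe with several symbols was left out. Alternatives were another channel order, block-wise loess or centring, no background correction, the deposited ratios, other filters and single arrays left out.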

Additional observations from a re-analysis of the deposited data

Results flagged for a closer look

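For 6 named or tested members both DLD-1 arrays lay on one side of 0 and both HT-29 arrays on the other. The difference between lines was not tested for any of them. Of tested probes, 5 of 50 members and 7.41% of all probes had this pattern. PCDHGA11 had a DLD-1 mean minus HT-29 mean of -0.98 on the log2 scale, PCDHA4 one of -0.77, PCDHGB7 -0.72 and PCDHB10 -0.45, all lower in DLD-1. The second CDH2 probe had a difference of 0.44 and PCDH8 one of 1.31, higher in DLD-1. The first CDH2 probe had opposite signs on the DLD-1 arrays. With block medians set to 0, PCDHGA11 stood at -1.21 and 0.05 on the DLD-1 arrays, and the second CDH2 probe at -0.11 and 0.25 on the HT-29 arrays, so neither kept the pattern. PCDHGB7, with -0.46 and 0.04 in DLD-1 against 0.10 and 0.19 in HT-29, and PCDHB10, with -0.25 and 0.15 against 0.46 and -0.14, did not keep it either. PCDHA4 kept it, with -0.40 and -0.21 in DLD-1 against 0.26 and 0.05 in HT-29. PCDH8 stood at 0.71 and 0.59 in DLD-1, against -0.48 and -0.13 in HT-29, and kept it, but both its channels were not well above background on DLD-1 array 1. PCDHA5 and PCDHA1 also had the pattern, with differences of 1.38 and 1.19, but were above background in 1 and 0 of 8 channel measurements. Under the labels' channel order both dye-exchanged arrays turn, and none of the 6 keeps 1 sign within a line.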

How the results depend on the processing

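The count of members called by limma was 0 under every alternative other than leaving out DLD-1 replicate 2. It was then 1 of 54, CDH1, in a fit that called 4.52% of all probes. Leaving out 1 array in turn gave 0 to 1. The deposited log2 ratios tested 38 members. Past 2-fold, leaving out 1 array gave 2 to 3 members in DLD-1 (CDH2 probe 1, PCDHA5 and PCDH20, or CDH1 and CDH8) and 1 to 3 in HT-29 (PCDHGA3, PCDHGA9 and PCDH7, or CDH1), since 1 array then decides, against 4.14% to 6.31% of all probes. With no filter on dim probes 1 member passed in DLD-1, PCDHA5, and 1 in HT-29, PCDHA1, against 0.24% and 0.189% of all probes. Neither member was above background there on both arrays. Under the labels' channel order the member median was 0.068 in DLD-1 and 0.037 in HT-29. Leaving out 1 array gave medians of -0.18 to -0.06 in DLD-1 and -0.11 to 0.076 in HT-29. Among the named probes, means changed sign for 10 under the labels' channel order, 3 with block-wise loess and 2 with block medians set to 0. The deposited log2 ratios turned 4 of the 12 named probes tested with them. Without DLD-1 replicate 1 the count was 10, without DLD-1 replicate 2 4, without HT-29 replicate 1 2 and without HT-29 replicate 2 5. The cause of these changes was not tested. Treated and untreated RNA were paired on each array through its log2 ratio. The labels give arrays no replicate number, and a line's arrays, 1 of each dye orientation, were averaged before the fit.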

Other observations

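Some cadherin probes carried no platform symbol and were named only in the scanner files' descriptions, so they stand outside the 81 members. CDH13, or T-cadherin, a cadherin anchored by lipid and known for promoter methylation in carcinomas, had log2 ratios of 0.06 and 1.32 in DLD-1 and 0.22 and -0.58 in HT-29. Its mean was 0.26 with an adjusted p of 0.963 in limma. CDH4, or R-cadherin, also known for promoter methylation in carcinomas, had 0.69 and 0.14 in DLD-1 and 1.35 and 0.47 in HT-29, above 0 on all 4 arrays. CDH4 was above background in 4 of 8 channel measurements and could not enter the fit, and its mean under the labels' channel order was 0.36. PCDH17 had 0.61 and -0.48 in DLD-1 and 0.52 and -0.67 in HT-29, positive on both arrays with treated RNA in Cy5 and negative on both dye-exchanged arrays. A second CDH15 probe had 0.41 and -0.84 in DLD-1 and 1.17 and 0.45 in HT-29, with all 8 channel measurements above background, a mean of 0.30 and an adjusted p of 0.963, and its mean was 0.49 under the labels' channel order. The second PCDH9 probe had -0.31 and 0.36 in DLD-1 and 0.24 and 0.42 in HT-29, above background in 5 of 8 channel measurements. The second PCDHA10 probe was above background in 1 of 8. The second PCDHGA11 probe had 0.05 and -1.03 in DLD-1 and 0.57 and -0.57 in HT-29. It did not repeat the signs of the PCDHGA11 member probe on DLD-1 array 1 or HT-29 array 2.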
